A study of Homo sapiens with 32 samples.

Results

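SMARCA2 that cannot hydrolyse ATP was expressed in H1299 lung carcinoma cells that kept their own SMARCA2, and 3 such arrays were compared with 3 arrays of cells expressing GFP. These are 6 of the 32 arrays of the series, taken by their labels. With the ATPase dead protein, SMARCA2 RNA was 1.36 log2 higher in 1 of its 5 tested probe sets and between -0.01 and 0.53 in the other 4, and 43 further genes out of 12564 tested were called, with differences of 0.12 to 0.59 log2. Transcripts of the linker histones H1-4 and H1-2, the immediate early factor EGR1 and the glutathione-degrading enzyme CHAC1 were lower, and that of the matrix protein fibronectin (FN1) was higher. Of these, EGR1 kept its call in all 6 fits that left out 1 array, with limma adjusted p up to 0.0498. FN1 lost its call in 3 of these fits, H1-2 in 4, H1-4 in 5 and CHAC1 in 6. All 43 further genes had the same sign against GFP with a bromodomain mutant of SMARCA2, and 36 did with wild-type SMARCA2. Those comparisons use the same GFP arrays. Genes that the SMARCA2 knockdown lowered by a median of 0.71 log2, in cells carrying wild-type or bromodomain-mutant SMARCA2, had a median difference of -0.02 log2 with the dead protein.

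SMARCA2 and SMARCA4 are the alternative motor subunits of the SWI/SNF chromatin remodelling complexes. Their ATPase domain uses ATP to slide or evict nucleosomes, which opens enhancers and promoters, and their bromodomain binds acetylated histone tails. A subunit without ATPase activity can still enter a complex, and where it takes the place of a working subunit it may act as a dominant negative. Lung carcinoma lines such as H1299 that have lost SMARCA4 protein depend on SMARCA2, so the endogenous motor in these cells is known to be mainly SMARCA2. The comparison asks whether the dead protein disturbs that endogenous function or leaves it as it was.

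All H1299 cells were stable lines with a short hairpin RNA and a cDNA, grown in RPMI medium with 10% serum and otherwise untreated. Under shLuc, a hairpin against luciferase that leaves SMARCA2 in place, the cDNA was SMARCA2 ATPase dead, SMARCA2 BRD MUT (a bromodomain mutant), SMARCA2 WT or GFP. Under S2sh7, a hairpin aimed at the ATPase domain of SMARCA2, the same 4 cDNAs were used; these arrays give the knockdown effects and a separate set of ATPase dead, WT and GFP arrays. Each of these groups had 3 arrays, and the labels put all H1299 arrays in 1 batch. The promoter that drives each cDNA, the altered residue of the ATPase dead form, and whether a line is a pool or 1 clone are not stated. Replicates are labelled biological. Whether each had its own infection or culture is not said, and p-values then measure only the spread between these samples, which may be technical.

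Values are RMA intensities per probe set on a linear scale, and differences are in log2. A gene was called at an adjusted p under 0.05 in limma, which was fitted over all 24 H1299 arrays. Array medians of the 6 arrays lay between 26.6 and 27.0, and correlations within the 2 groups between 0.998 and 0.999. The carcinoma markers KRT8, KRT18 and VIM averaged 1653, 7682 and 14035 in ATPase dead cells and 1725, 7907 and 14112 in GFP cells. Of 13 markers of leukocytes, red cells and endothelium, 11 had a probe set, and 7 to 9 of these were at or under log2 5 on each of the 6 arrays, among them PTPRC, CD14, CDH5 and KDR. Their summed intensity was 258 to 272 in ATPase dead cells and 241 to 255 in GFP cells; its part in any result was not tested.

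Of the 7 SMARCA2 probe sets, 5 were bright enough to be tested. Probe set 212257_s_at read 99.2, 116 and 112 in the ATPase dead arrays, against 43.7, 43.6 and 40.4 in the GFP arrays. All ATPase dead arrays thus stood well above all GFP arrays (1.36 log2, SE 0.16, limma adjusted p = 0.000826 over all genes). Probe set 206544_x_at read 77.6, 70.7 and 76.0 in ATPase dead arrays, against 55.4, 49.2 and 50.9 in GFP arrays. The groups did not overlap there either, but the difference of 0.53 log2 was not called over all probe sets (limma adjusted p = 0.079). The other 3 differed by 0.12, 0.001 and -0.01 log2 and their groups overlapped. Averaged over its probe sets, SMARCA2 differed by 0.26 log2 and was not called (limma adjusted p = 0.0718). Probe set 212257_s_at stands for the gene because its mean over all H1299 arrays is highest, and the lines with SMARCA2 cDNAs raise that mean; in GFP cells it averaged 42.6, below the 84.4 of 217707_x_at and the 70.6 of 206542_s_at. The part of the transcript that each probe set reads was not known here, and RNA of the cDNA and of the endogenous gene cannot be told apart.

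**Figure D1:**
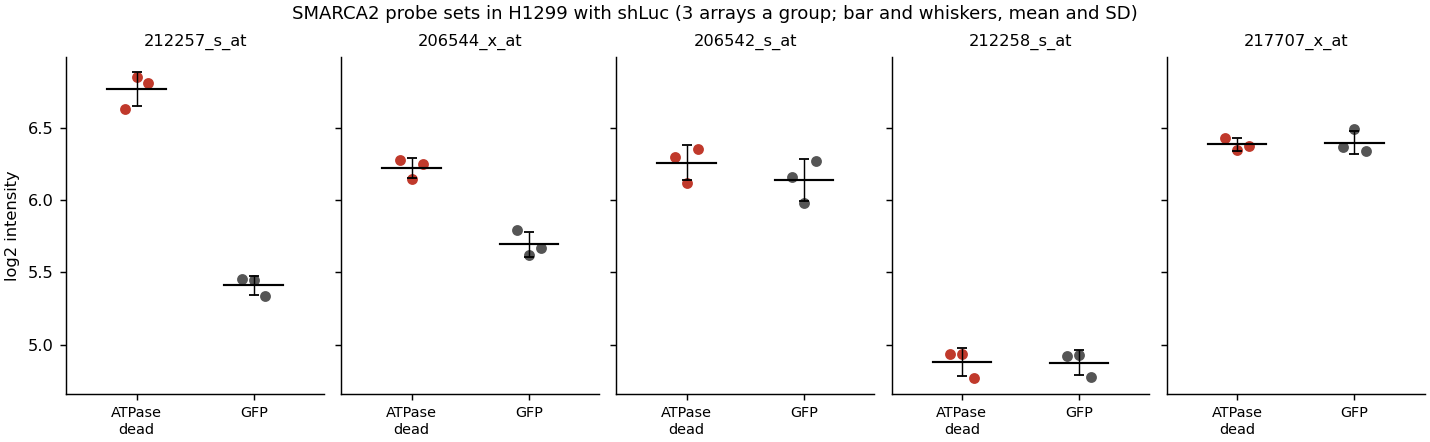
Log2 intensity of the 5 tested SMARCA2 probe sets in the 3 ATPase dead and 3 GFP arrays with shLuc (points, arrays; bar and whiskers, mean and SD). The first probe set is 1.36 log2 higher in ATPase dead cells, the second 0.53, and the other 3 overlap.

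The first of these probe sets also gives SMARCA2 RNA in the lines with the other SMARCA2 forms. It averaged 109 ± 8.72 in ATPase dead cells, against 107 ± 7.27 in BRD MUT cells and 121 ± 16.3 in WT cells (SD, n = 3 each). ATPase dead cells differed from WT cells by -0.15 log2 (limma adjusted p = 0.741) and from BRD MUT cells by 0.02 log2 (adjusted p = 0.988), and the arrays of these groups overlapped. The array does not measure protein, and in bulk RNA fewer cells with a transcript and less of it per cell cannot be told apart. SMARCA4, the other motor, read 158, 142 and 140 in ATPase dead arrays and 182, 157 and 163 in GFP arrays. Those groups overlapped (-0.19 log2, 95% interval -0.33 to -0.05, limma adjusted p = 0.198), and none of its 6 tested probe sets was called. Among the 25 tested partner subunits of the complexes, such as ARID1A and SMARCC1, 0 were called higher and 0 lower in limma. At an unadjusted p under 0.05 there were 5 of the 25, beside 1829 of all 12564 genes. The median of the subunits was -0.04 log2 beside -0.008 for all genes, and their differences ran between -0.22 and 0.13.

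Against GFP, 44 of 12564 genes were called in limma, which is 0.35% of those tested; 12 were higher (0.0955%) and 32 lower (0.255%). SMARCA2 was the gene past 2-fold. Without it the median size of the 43 differences was 0.19 log2 and their range 0.12 to 0.59. Over all genes the median size was 0.05 log2, and 99% of genes differed by less than 0.22. The median half-width of a gene's 95% interval was 0.10 log2, and for 99.7% of genes the whole interval lay within 0.5 log2 of no difference. At an unadjusted p under 0.05 there were 1829 genes. The count was sensitive to single arrays: it was 4, 15 or 17 without GFP replicate 1, 2 or 3, and 4, 6 or 7 without ATPase dead replicate 1, 2 or 3. Repeated quantile normalization gave 35 higher and 31 lower, so the balance of rises and falls moved with the scaling. SMARCA2 and EGR1 kept their calls without any one array, with limma adjusted p up to 0.0104 for SMARCA2 and up to 0.0498 for EGR1.

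**Figure D2:**
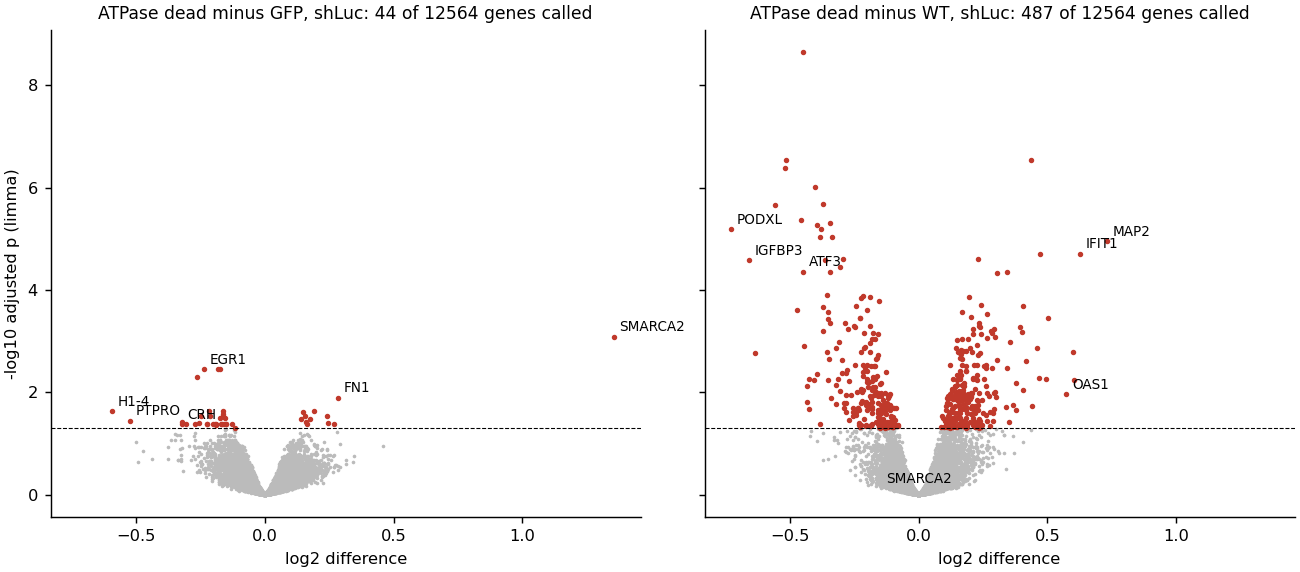
Each point is a gene: log2 difference on the horizontal axis and -log10 of the limma adjusted p on the vertical axis, for ATPase dead minus GFP (left) and ATPase dead minus WT (right) with shLuc. Red points lie past an adjusted p of 0.05 (dashed line), 44 genes on the left and 487 on the right.

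Linker histones bind nucleosomes at the entry and exit of DNA and help to fold chromatin. H1-4 read 46.3, 50.02 and 45.8 in ATPase dead arrays, against 82.3, 72.9 and 60.5 in GFP arrays. The groups did not overlap, and GFP arrays scattered widely (47.4 ± 2.32 in ATPase dead cells and 71.9 ± 11.0 in GFP cells, SD, n = 3 each). H1-4 fell by 0.59 log2 (SE 0.103, limma adjusted p = 0.0236), the largest fall among the called genes, in its single and rather dim probe set 208553_at. It lost the call in 5 of 6 fits that left out 1 array, with adjusted p up to 0.152. H1-2 read 408, 413 and 442 in ATPase dead arrays, against 499, 487 and 479 in GFP arrays, also without overlap (-0.21 log2, SE 0.038, limma adjusted p = 0.0236). Of 25 tested linker and core histone genes these 2 fell and 23 were not called. The list's median was -0.008 log2, as for all genes. H1-5, picked out after its values were seen, read 42.6, 43.6 and 42.8 in ATPase dead arrays, against 63.4, 61.2 and 57.9 in GFP arrays. It did not overlap either, but its -0.50 log2 was not called (limma adjusted p = 0.0946). H1-3 (-0.06) and H1-10 (0.02) had overlapping arrays.

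H1-4 and H1-2 lie on chromosome 6 and are shown by the 250 bases before their annotated starts (RefSeq, GRCh38.p14), since both were lower and their promoters share elements of the replication-linked H1 genes. The H1-4 window is chr6:26156079-26156328, plus strand, and the H1-2 window chr6:26056471-26056720, minus strand. Capitals mark the H1 box AAACACA and the CCAAT box, searched on both strands.
H1-4: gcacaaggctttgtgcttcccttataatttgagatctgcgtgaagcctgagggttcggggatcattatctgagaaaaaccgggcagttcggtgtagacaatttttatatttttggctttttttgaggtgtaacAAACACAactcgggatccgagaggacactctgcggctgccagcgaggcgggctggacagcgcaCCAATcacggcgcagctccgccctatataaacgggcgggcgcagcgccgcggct
H1-2: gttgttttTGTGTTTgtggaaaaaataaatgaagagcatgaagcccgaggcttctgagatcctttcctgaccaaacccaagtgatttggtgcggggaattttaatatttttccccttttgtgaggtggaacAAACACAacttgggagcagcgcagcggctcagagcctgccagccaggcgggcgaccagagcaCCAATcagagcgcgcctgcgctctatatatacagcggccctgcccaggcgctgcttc
The H1 box lies 117 bases before the start of H1-4 and 119 before that of H1-2, and the CCAAT box 54 and 57 bases before them. H1-2 holds a further copy of the H1 box on the other strand. Over windows of 250 bases before to 50 after the start of 35116 genes, 5.64% hold the H1 box letters and 34.6% the CCAAT letters.

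EGR1 encodes a zinc finger factor made within minutes of growth factor or stress signals. It read 628, 600 and 649 in ATPase dead arrays, against 752, 759 and 700 in GFP arrays. Each ATPase dead array was below each GFP array (-0.24 log2, SE 0.034, limma adjusted p = 0.00354), and its 3 probe sets gave -0.21 to -0.30. Over all probe sets 201694_s_at was called, while 201693_s_at (limma adjusted p = 0.202) and 227404_s_at (limma adjusted p = 0.0867) were not. EGR1 lost its call in 1 of 9 alternatives other than leaving out arrays (limma adjusted p = 0.174). Of 35 tested immediate early genes EGR1 fell, 0 rose and 34 were not called, with a median of -0.04 log2. MYC, for one, stood at -0.12 (adjusted p = 0.0508). The EGR1 window is chr5:138465229-138465478, plus strand, and capitals mark its CArG boxes, the sites of serum response factor, which 1.29% of the windows hold.
EGR1: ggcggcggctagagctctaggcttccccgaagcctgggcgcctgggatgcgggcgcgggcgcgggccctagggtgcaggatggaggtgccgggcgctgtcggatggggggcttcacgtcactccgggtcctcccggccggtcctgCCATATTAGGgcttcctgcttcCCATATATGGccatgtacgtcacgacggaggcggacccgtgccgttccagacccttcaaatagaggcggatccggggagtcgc
These boxes begin 105 and 83 bases before the start.

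FN1, the secreted glycoprotein that cells lay down as a fibrous matrix and bind through integrins, was higher. It read 154, 138 and 148 in ATPase dead arrays, against 120, 119 and 122 in GFP arrays, again without overlap (0.28 log2, SE 0.046, limma adjusted p = 0.0128). All 4 tested FN1 probe sets were positive, at 0.16 to 0.28, and 210495_x_at was called. Averaged over its probe sets, the FN1 difference was 0.12 and not called (adjusted p = 0.143). Of 36 tested extracellular matrix genes FN1 rose, 0 fell and 35 were not called; 27 were positive and 9 negative, with a median of 0.03 log2. The FN1 window is chr2:215436069-215436318, minus strand, with a cyclic AMP response element (TGACGTCA, in 1.85% of windows) and a CCAAT box in capitals.
FN1: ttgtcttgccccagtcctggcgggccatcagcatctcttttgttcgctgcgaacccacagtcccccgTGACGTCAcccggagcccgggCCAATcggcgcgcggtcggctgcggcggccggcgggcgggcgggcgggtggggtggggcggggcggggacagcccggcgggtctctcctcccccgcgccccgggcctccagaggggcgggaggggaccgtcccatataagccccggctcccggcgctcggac
The first begins 183 bases before the start and the second 162.

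**Figure D3:**
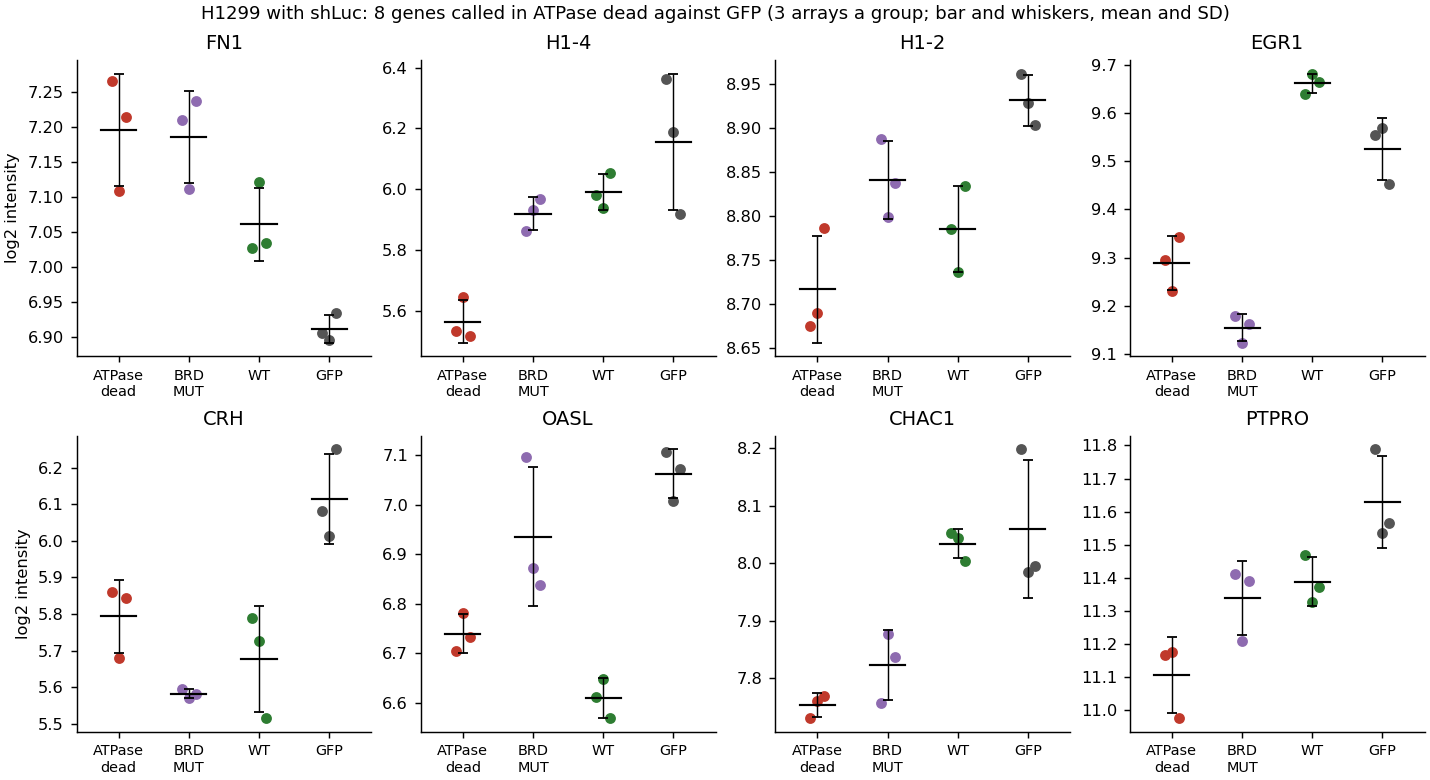
Log2 intensity of 8 genes called in ATPase dead against GFP, in the ATPase dead, BRD MUT, WT and GFP arrays with shLuc (points, arrays; bar and whiskers, mean and SD; axes do not start at 0). ATPase dead and GFP arrays do not overlap in any panel, which for all but H1-2 was a condition of naming by size. The ATPase dead arrays overlap those of BRD MUT for FN1 and CHAC1 and those of WT for FN1, H1-2 and CRH.

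The other rises were small. CPOX, an enzyme of haem synthesis, was 0.25 log2 higher (limma adjusted p = 0.0403), at 516, 522 and 516 in ATPase dead arrays against 440, 427 and 444 in GFP arrays. NECTIN3, a cell adhesion molecule, rose by 0.19, the palmitoyltransferase ZDHHC2 by 0.18, the cyclin-dependent kinase inhibitor CDKN1B by 0.17, the centromere protein CENPK by 0.16 and the lysosomal membrane protein TMEM106B by 0.15. MEGF9, a membrane protein with EGF-like repeats, rose by 0.24, and the pseudogene GPR199P by 0.27. Rises were named only from called genes whose 2 groups did not overlap. The limma adjusted p of those given here lay between 0.0236 and 0.042.

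PTPRO, a receptor tyrosine phosphatase, fell by 0.52 log2 (limma adjusted p = 0.0358). It read 2299, 2313 and 2013 in ATPase dead arrays, against 3539, 2968 and 3030 in GFP arrays. CHAC1 fell by 0.31 (adjusted p = 0.042), with 212, 217 and 218 in ATPase dead arrays against 294, 253 and 255 in GFP arrays. OASL, an interferon-induced relative of the oligoadenylate synthetases, read 104, 110 and 106 in ATPase dead arrays, against 138, 129 and 135 in GFP arrays. It fell by 0.32 (adjusted p = 0.0376) in probe set 210797_s_at, while its other probe set differed by 0.03. GPAT2, an acyltransferase of lipid synthesis, fell by 0.27 (adjusted p = 0.00501), and SFI1, a centrosome protein, by 0.25 (adjusted p = 0.0297). The pseudogenes CROCCP2 and AFG3L1P fell by 0.27 and 0.26; these and GPR199P resemble other genes, so their signal may be shared with them. Tested probe sets disagreed in sign for AFG3L1P (-0.26 to 0.11) and for TMEM106B (-0.02 to 0.15), and those of CROCCP2 ran from -0.27 to -0.05. Averaged over all probe sets, dim ones included, MEGF9 differed by 0.03 (limma adjusted p = 0.887), TMEM106B by 0.05, ZDHHC2 by 0.09, PTPRO by -0.17, OASL by -0.15, CROCCP2 by -0.13, SFI1 by -0.14 and AFG3L1P by -0.11, none called. The second MEGF9 probe set, too dim to be tested, read 25.7, 25.8 and 22.7 in ATPase dead arrays, against 26.8, 29.6 and 28.1 in GFP arrays. Falls too were named only from called genes whose groups did not overlap in the probe set kept. Over all genes, 25.6% had 3 and 3 arrays without overlap.

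The remaining lists held few or no calls. Of 32 integrated stress response genes, which follow ATF4 when amino acids run short or proteins misfold, CHAC1 fell and 31 were not called. Their median was -0.09 log2 and 28 of 32 were negative, or 28 with each array centred on its median and 27 after repeated quantile normalization. At an unadjusted p under 0.05 there were 19 of the 32, beside 1829 of all 12564 genes. Of 33 interferon-stimulated genes OASL fell and 32 were not called, 20 positive and 13 negative, with a median of 0.01 (-0.00064 with centred arrays). YAP and TAZ targets (22 genes), actin cytoskeleton (22), mesenchymal (18), epithelial (21), cholesterol (16), NRF2 (18), hypoxia and glycolysis (28), DNA replication (40), mitotic (38) and inflammatory secreted genes (15) had 0 calls in either direction in limma. Their medians lay between -0.05 and 0.03 log2, and those of YAP and TAZ, epithelial and cholesterol genes turned from negative to positive after repeated quantile normalization. With the partner subunits and the cell type markers, these 12 lists held 266 genes, of which 47 had an unadjusted p under 0.05. The 4 tested markers of other cells, CD3E of T cells, HBB of red cells and PECAM1 and TEK of endothelium, were not called (median 0.10).

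Knockdown genes were taken from S2sh7 set against shLuc in WT cells (32.3% of all genes called) and in BRD MUT cells (28.7%). They were called in both, in the same direction and by at least 0.5 log2. Their knockdown differences use no array of the comparison. The calls do, since limma's estimate of spread and the filter come from all 24 H1299 arrays. Entering the set and being called in the comparison are therefore not independent. The set reads whether the dead protein moved genes that S2sh7 moved in cells carrying a WT or BRD MUT cDNA. Genes that these cDNAs restored would be left out of the set. Effects of the hairpin other than on SMARCA2 were not tested. There were 141 lower genes, with a median knockdown effect of -0.71 log2, and 45 higher genes, with 0.68. In ATPase dead against GFP cells the lower set had a median of -0.02 log2 and the higher set one of -0.02, beside -0.008 for all genes. From the 10th to the 90th percentile the lower set spanned -0.19 to 0.10, and the higher set -0.14 to 0.11. In the lower set CHAC1, EGR1, H1-4 and the kinase gene SGK1 fell, SMARCA2 itself rose, and the rest were not called (3.55% called, beside 0.35% of all genes). In the higher set CRH fell, against the direction of the knockdown, and 44 were not called (2.22% called, beside the same 0.35%).

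**Figure D4:**
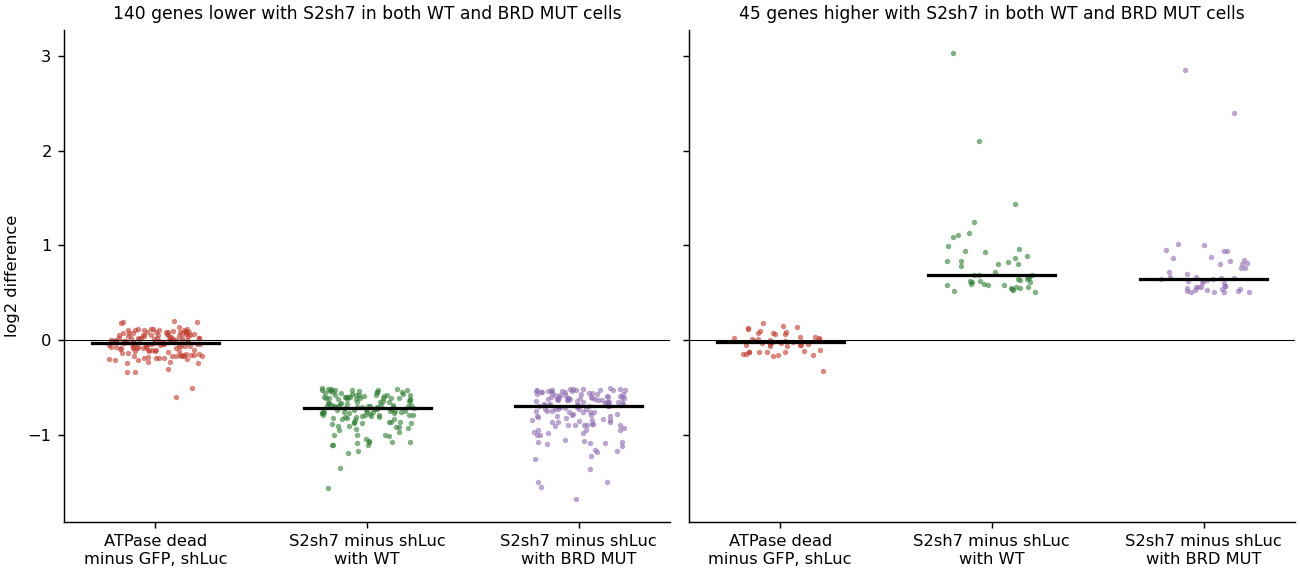
Log2 differences of genes lower (left, 140 without SMARCA2) or higher (right, 45) with S2sh7, in ATPase dead minus GFP cells with shLuc and in the pair of knockdown comparisons that chose them (points, genes; bars, medians). The medians are -0.02 and -0.02 in ATPase dead minus GFP, while the knockdown comparisons begin at 0.5 log2 by choice.

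The precision of the arrays bounds these effects gene by gene. For 140 of the 141 lower genes, all but H1-5, the 95% interval of the ATPase dead difference stopped short of the full knockdown effect, for 124 it stopped short of 50% of it and for 78 short of 25%. Among the 45 higher genes the numbers were 45, 43 and 34. Genes that were not called are thus not shown to be equal. Apart from H1-5, a change as large as the estimated knockdown effect lay outside the intervals. That estimate was taken as a fixed number without its own error, and the genes were chosen for a knockdown effect of at least 0.5 log2. The 141 genes include SMARCA2, whose RNA was higher in ATPase dead cells. Per array, the mean log2 of the lower genes minus that of the higher genes, SMARCA2 left out, was 0.377, 0.404 and 0.366 in ATPase dead cells, against 0.412, 0.407 and 0.377 in GFP cells. These ranges overlapped. With S2sh7 the same difference was -1.37, -1.35 and -1.38 in ATPase dead cells, against -1.45, -1.42 and -1.43 in GFP cells.

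Single genes were looked at array by array, taking those with the largest knockdown effects. ATF3, a stress-induced factor that dropped by 1.55 and 1.67 log2 with the knockdown, read 334, 332 and 318 in ATPase dead arrays, against 390, 364 and 364 in GFP arrays. The groups did not overlap, but the -0.18 log2 was not called (95% interval -0.30 to -0.07, limma adjusted p = 0.127). SPP1, which encodes osteopontin, rose by 3.03 and 2.85 log2 with the knockdown. It read 261, 261 and 264 in ATPase dead arrays, against 259, 260 and 261 in GFP arrays (0.01 log2, interval -0.07 to 0.09). CRH, a stress neuropeptide, rose by 2.10 and 2.40 with the knockdown, yet fell by 0.32 with the dead protein (limma adjusted p = 0.0418), at 58.0, 51.2 and 57.5 in ATPase dead arrays against 67.7, 64.6 and 76.1 in GFP arrays. The call was lost in 5 of 6 fits that left out 1 array. CRH probe set 205629_s_at, also tested, differed by -0.14 and was not called (limma adjusted p = 0.681 over all probe sets). KLF4, a zinc finger factor, stood at -0.07, the interferon-induced GTPase GBP1 at -0.04, the differentiation inhibitor ID2 at 0.001, the microtubule protein MAP2 at 0.10 and the collagenase MMP1 at -0.05, none called. SPX and SPARC were dim and stood at -0.13 and 0.19, not called either.

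ATPase dead cells were next compared with WT cells, whose SMARCA2 RNA was not called different, without use of the GFP arrays. The ATPase dead arrays are the same 3 as before, so what is particular to them enters each of these comparisons. The limma fit called 487 genes (3.88%), of which 259 were higher (2.06%) and 228 lower (1.81%), all by less than 2-fold. Among interferon-stimulated genes 18 of 33 rose, 0 fell and 15 were not called, with a median of 0.20 log2 beside 0.005 for all genes. IFIT1, which binds foreign RNA caps, read 322, 331 and 352 in ATPase dead arrays, against 213, 237 and 202 in WT arrays (0.63 log2, SE 0.069, limma adjusted p = 1.95e-05). It read 310, 322 and 330 in BRD MUT arrays and 321, 302 and 316 in GFP arrays, so the WT arrays stood below all 3 other groups. OAS1 rose by 0.57, IFI6 by 0.34, ISG15 by 0.41 and IFITM3 by 0.19 against WT. Against GFP the same genes differed by 0.01, -0.12, 0.01 and 0.06, none called.

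The IFIT1 window, chr10:89392373-89392622, plus strand, carries the interferon response element in tandem (capitals, TTTCNNTTTC, in 3.57% of windows on either strand).
IFIT1: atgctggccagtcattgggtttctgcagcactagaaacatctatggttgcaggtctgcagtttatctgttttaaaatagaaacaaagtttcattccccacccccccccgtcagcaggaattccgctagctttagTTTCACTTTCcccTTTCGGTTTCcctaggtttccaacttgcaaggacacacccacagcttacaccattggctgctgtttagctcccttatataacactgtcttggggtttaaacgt
The copies begin 116 and 103 bases before the start.

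Falls against WT were found in the stress response, the immediate early genes and YAP and TAZ targets. Over all genes 1.81% fell and 2.06% rose in this comparison, with a median of 0.005 log2. In the integrated stress response list 14 of 32 fell, 0 rose and 18 were not called (median -0.12 log2). They included TRIB3 (-0.31, limma adjusted p = 3.61e-05), ATF3 (-0.45), PPP1R15A (-0.35), which restarts translation, and the cystine transporter SLC7A11 (-0.20). Of 35 immediate early genes 11 fell and 1 rose (median -0.09), with EGR1 at -0.37 (adjusted p = 2.13e-06) and JUN at -0.29. Of 22 YAP and TAZ targets 9 fell and 0 rose (median -0.13), among them CCN2 (-0.37), GADD45A (-0.24) and AMOTL2 (-0.23). Some genes, such as CCN2, stand in more than 1 list, so the counts are not independent. WT cells also differed from GFP cells in these lists. YAP and TAZ targets had 7 genes called higher in WT than in GFP cells and 0 lower (median 0.12). Immediate early genes had 8 higher and 1 lower (0.04), and integrated stress response genes 2 and 0 (0.02). Of all 12564 genes 164 were higher and 339 lower. In ATPase dead against GFP the YAP and TAZ targets had 0 calls (median -0.01), and the other lists 1 fall each.

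**Figure D5:**
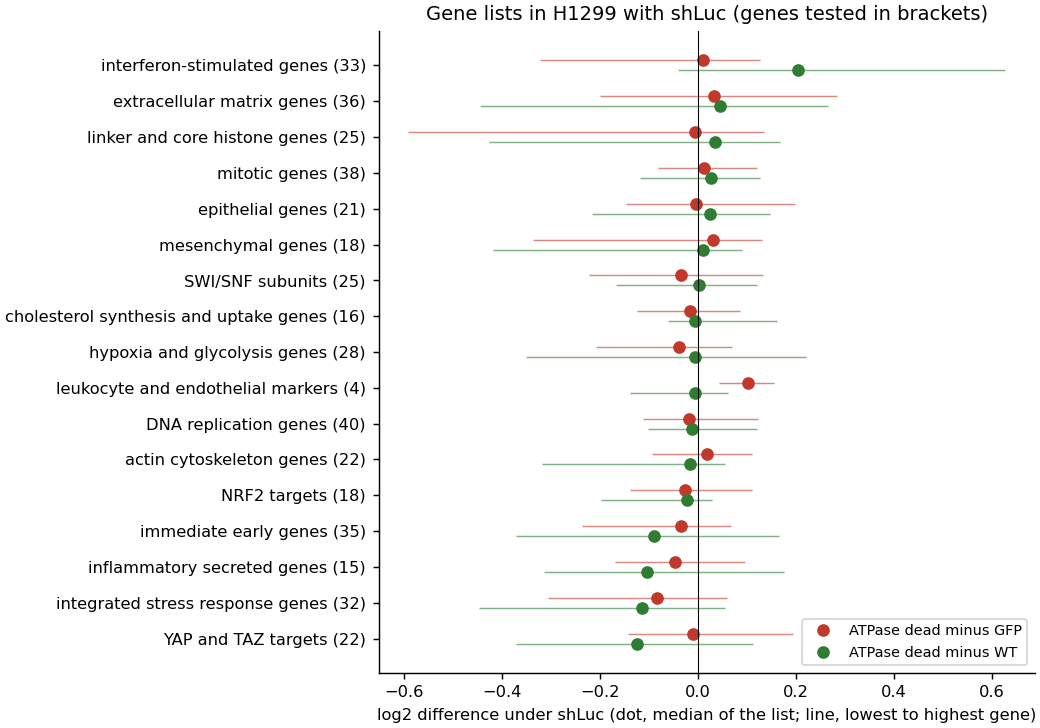
Median (dot) and range (line) of the log2 differences of 17 gene lists in ATPase dead minus GFP cells (red) and ATPase dead minus WT cells (green), both with shLuc; brackets give the genes tested. Interferon-stimulated genes lie at 0.01 against GFP (-0.00064 with centred arrays) and 0.20 against WT, and integrated stress response genes at -0.09 and -0.12.

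Among single genes, PODXL, a sialomucin of the cell surface, read 95.1, 99.4 and 96.2 in ATPase dead arrays, against 150, 165 and 166 in WT arrays (-0.73 log2, SE 0.073, limma adjusted p = 6.56e-06). In GFP cells it read 91.9, 99.04 and 102, which overlapped the ATPase dead arrays. MAP2 was 121, 109 and 124 in ATPase dead arrays, against 68.1, 67.2 and 77.98 in WT arrays (0.73 log2, adjusted p = 1.11e-05), and 111, 106 and 113 in GFP arrays. IGFBP3, a carrier of insulin-like growth factors, fell by 0.66, the neuropeptide gene SPX by 0.64, the polo-like kinase PLK2 by 0.56 and the zinc finger gene ZNF404 by 0.52 against WT. FAM13C and KLHL14 rose by 0.60 and 0.60. Within extracellular matrix genes SPP1 (0.26) and TIMP1 (0.19), an inhibitor of matrix proteases, rose and THBS1 (-0.45) fell. H1-4 was lower than in WT as well (-0.43, adjusted p = 0.0213), at 63.1, 61.3 and 66.4 in WT arrays, with no overlap.

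Smaller lists gave few calls against WT. CALD1 (-0.32) and ACTN1 (-0.10) of the 22 actin genes fell, as did the hypoxia-induced genes ADM (-0.35) and PFKFB3 (-0.27) among 28, PLAUR (-0.23) and TNFAIP3 (-0.21) among 15 inflammatory secreted genes, GCLM (-0.13) beside SLC7A11 among 18 NRF2 targets, and CLDN1 (-0.22) among 21 epithelial genes. LSS (0.13) and IDI1 (0.14), enzymes of cholesterol synthesis, rose among 16. For knockdown genes chosen in GFP cells (35.4% of all genes called) and BRD MUT cells, which share no array with this comparison, 41 of 197 lower genes fell and 15 rose (28.4% called, beside 3.88% of all genes in this comparison, median -0.08). Of 52 higher genes 11 rose and 2 fell (25% called, median 0.11). Here too the choice of genes and the calls share limma's estimate of spread. The 15 that rose included IFIT1, IFI6 and ISG15, which the knockdown lowers.

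Set against BRD MUT cells, limma called 69 genes (0.549%), with 13 higher (0.103%) and 56 lower (0.446%). SPARC, a matrix protein, read 34.4, 30.6 and 26.5 in ATPase dead arrays, against 49.0, 61.1 and 55.5 in BRD MUT arrays. The difference was -0.86 log2 (SE 0.140, adjusted p = 0.00457). In the ATPase dead arrays SPARC was dim and close to the background, which limits the size of this difference. The BRD MUT arrays were bright enough for SPARC to be tested, whatever it read in ATPase dead cells. PODXL differed by -0.67, the growth factor PTN by -0.48, the protease inhibitor SERPINA1 by -0.45, the oestrogen receptor GPER1 by -0.37 and TGFBI, an adhesion protein of the matrix, by -0.35 (adjusted p = 1.77e-05). MYL9, KRT80, P4HA2 and IER3 were called lower too, at -0.21, -0.27, -0.33 and -0.21. The collagen cross-linker LOX (0.28), the amino acid enzymes MTHFD2 (0.13) and ASNS (0.13), GADD45A (0.17), KLRG1 (0.28), DPEP3 (0.28), ABCA17P (0.28) and DPPA2 (0.26) were higher. Interferon-stimulated genes had 0 calls of 33 here in limma (median -0.02). At an unadjusted p under 0.05 there were 8 of the 33, beside 1225 of all 12564 genes in this comparison. FN1 and EGR1 differed by 0.01 and 0.13, neither called (adjusted p = 0.976 and 0.102), and H1-4 by -0.36 (adjusted p = 0.178).

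The comparisons with GFP, WT and BRD MUT share the 3 ATPase dead arrays and are not repeats of each other. Side by side, PPIF, a mitochondrial cyclophilin, stood at -0.18, -0.45 and -0.16 against GFP, WT and BRD MUT, and SGK1 at -0.19, -0.40 and -0.18, all called. CRIP1, a LIM domain protein, was called in opposite directions, at -0.19 against GFP and 0.23 against WT. These 3 genes were picked out after their values were seen. WT against GFP called 503 genes (4%) and BRD MUT against GFP 257 (2.05%), but both use the same GFP arrays as the ATPase dead comparison. Of the 43 genes called besides SMARCA2, 43 had the same sign in BRD MUT and 36 in WT cells against GFP, which the shared arrays favour. Against BRD MUT cells 4 of the 43 were called: DKK3, PPIF, SGK1 and GPAT2. Set beside each other, FN1 stood at 0.28 in ATPase dead, 0.27 in BRD MUT and 0.15 in WT cells against GFP, H1-4 at -0.59, -0.24 and -0.17, EGR1 at -0.24, -0.37 and 0.14, and CRH at -0.32, -0.53 and -0.44.

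The 6 arrays of ATPase dead and GFP cells under S2sh7 share none with those under shLuc. There limma called 134 genes (1.07%), of which 77 were higher (0.613%) and 57 lower (0.454%), and SMARCA2 was 1.18 log2 higher (adjusted p = 0.000878). Of the 44 genes called under shLuc, 4 were called in the same direction under S2sh7 (9.09% of the 44 and 2.99% of the 134): SMARCA2, DKK3, TFPI2 and CRH. CRH read 367, 338 and 332 in ATPase dead arrays, against 540, 567 and 563 in GFP arrays (-0.69 log2, adjusted p = 1.62e-05). DKK3, a secreted WNT modulator, stood at 0.14 under shLuc and 0.16 under S2sh7, and the protease inhibitor TFPI2 at -0.17 and -0.31. Besides SMARCA2, 29 of 43 genes kept their sign, beside 52.2% of all genes. FN1 (0.16), H1-4 (-0.42), H1-2 (-0.14) and PTPRO (-0.35) pointed the same way without being called (adjusted p = 0.103, 0.0545, 0.0787 and 0.111).

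The test of whether the ATPase dead effect depends on the hairpin called 9 genes in limma (0.0716%). EGR1 was lower than GFP under shLuc and stood at 0.13 under S2sh7, which was not called (adjusted p = 0.0584), a difference of 0.37 log2 (SE 0.048, adjusted p = 0.00111). OASL differed by 0.52 (adjusted p = 0.0319), the developmental factor SALL3 by 0.32 (adjusted p = 0.0319) and CLASRP, a splicing regulator, by 0.27 (adjusted p = 0.00144). Under S2sh7, ATPase dead against WT called 518 genes (4.12%). Of these and the 487 under shLuc, 128 were called in the same direction and 13 in opposite directions, which is 26.3% of the shLuc genes and 24.7% of the S2sh7 genes for the shared direction. Over the 12564 genes the differences correlated with Pearson's r = 0.32 and Spearman's rho = 0.30; genes are not independent replicates, and their values share the arrays of each comparison.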

How the data were processed

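Affymetrix arrays measured total RNA of 24 H1299 and 8 A549 samples after in vitro transcription. The deposited values are intensity per probe set on a linear scale, made by RMA. The submitters' processing notes name RMA and limma without versions and without a genome build. The design had assumed log2 values, so log2 of the deposited intensity was taken with no pseudocount. H1299 was analysed alone. Precision is limited by the number of arrays.

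The platform has 54675 probe sets: 41097 carry a single gene symbol, 1801 carry several and 11777 carry none; the last 2 kinds are not named. Symbols were updated through the RefSeq table of GRCh38.p14, where 54 had no match. Each of 19775 genes was read by its probe set with the highest mean, and 12564 genes with log2 over 5 in at least 3 H1299 arrays were tested. Limma 3.58.1 (R 4.3.3, with version 1.17.8 of the data.table package) was fitted with 1 mean per group over 8 groups, 16 residual degrees of freedom, default eBayes and Benjamini-Hochberg adjustment over all genes; the calls were tested on simulated data. Single probe sets of SMARCA2 and SMARCA4 were fitted over 22834 probe sets. Figures used Python 3.11.15 and matplotlib 3.10.9.

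The groups compared, the gene lists and the knockdown genes were chosen with earlier results of these data known. Named genes were SMARCA2, SMARCA4, FN1, H1-4 and EGR1; called genes without overlap against GFP, up to 10 rises and 10 falls by size; up to 3 called members of each list with the smallest adjusted p; and the 5 largest in each direction against WT and against BRD MUT. Others (H1-5, H1-3, H1-10, ISG15, MYC, ARID1A, SMARCC1, PPIF, SGK1, CRIP1, DKK3, TFPI2, SALL3, CLASRP and the genes with the largest knockdown effects) were chosen after their values were seen. Alternatives were filters of none or log2 over 6, averaged probe sets, centred arrays, repeated quantile normalization, array weights, trend and robust eBayes, a replicate block, a fit on the compared arrays alone, other choices of knockdown genes, and each array left out in turn. Same-numbered arrays of ATPase dead and GFP cells did not deviate together (correlations of 0.056, 0.050 and 0.0099), so the numbers were not used as pairs.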

Additional observations from a re-analysis of the deposited data

Results flagged for a closer look

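The ATPase dead against GFP difference depended on the hairpin for 4 of the genes named by the rule, by the interaction term in limma. EGR1 read 430, 414 and 423 in ATPase dead arrays under S2sh7, against 382, 383 and 390 in GFP arrays, a difference of 0.13 log2 that was not called (adjusted p = 0.0584), beside -0.24 under shLuc; the difference was 0.37 log2 (adjusted p = 0.00111). OASL read 74.7, 73.5 and 70.0 in ATPase dead arrays under S2sh7, against 58.1, 69.1 and 63.2 in GFP arrays. Its difference of 0.52 log2 (adjusted p = 0.0319) lost the call in 8 of 12 fits that left out 1 array, with adjusted p up to 0.121. IFI6 read 766, 767 and 770 in ATPase dead arrays under S2sh7, against 587, 597 and 613 in GFP arrays; the difference was 0.36 log2 there and -0.12 under shLuc, and the interaction 0.48 (adjusted p = 0.000616). SPP1 read 1967, 1915 and 1936 in ATPase dead arrays under S2sh7, against 2718, 2633 and 2717 in GFP arrays. That is -0.47 log2, beside 0.01 under shLuc, with an interaction of -0.48 (adjusted p = 0.000262).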

How the results depend on the processing

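The 44 calls of ATPase dead against GFP became 372 with array weights, 218 with trend and robust eBayes, 71 with a filter of log2 over 6, 9 with centred arrays, 6 with no filter and 2 from the 6 arrays alone, and 4 to 17 without single arrays. Of the 21 named genes called there, 21 kept the call with array weights and after quantile normalization, 20 with trend and robust eBayes, 9 with the mean of all probe sets, 6 with centred arrays, 4 with no filter, 1 in the 6 arrays alone and 2 to 9 without single arrays, and none reversed. With the replicate block the count was 31, and 15 of 21 named genes kept the call. ATPase dead against WT gave 1144 with array weights, 318 with centred arrays, 306 with no filter, 231 from the compared arrays alone and 254 to 342 without single arrays; the block gave 433. Against BRD MUT the counts were 209 with array weights, 122 with trend and robust eBayes, 30 with no filter, 6 from the compared arrays alone and 28 to 38 without single arrays, with 20 higher and 46 lower after quantile normalization. Under S2sh7, ATPase dead against GFP gave 330 with trend and robust eBayes, 221 with log2 over 6, 73 with no filter, 4 from the compared arrays alone and 49 to 219 without single arrays (71 higher and 29 lower with centred arrays), and against WT 326 with no filter, 58 from the compared arrays alone and 308 to 470 without single arrays. The 9 hairpin-dependent genes became 20 with array weights, 69 with trend and robust eBayes, 20 with log2 over 6, 5 with centred arrays, 5 with the mean of probe sets, 5 with no filter, 2 from the compared arrays alone, 5 with the replicate block and 4 to 13 without single arrays, with 4 higher and 3 lower after quantile normalization. Fits of few arrays have fewer residual degrees of freedom, and looser filters more genes; otherwise the cause was not tested.

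Knockdown genes against GFP had a median of -0.046 log2 for the 9 lower genes and -0.15 for the 2 higher genes past 1 log2, 0.0043 for the lower genes after quantile normalization, and -0.039 to -0.0027 (lower) and -0.039 to -0.0029 (higher) without single arrays. Against WT the medians were -0.031 (lower) and 0.045 (higher) with no minimum size and 0.065 for the 4 higher genes past 1 log2, and -0.096 to -0.076 (lower) and 0.096 to 0.117 (higher) without single arrays. Uncalled probe sets near 0 changed sign: SMARCA2 212258_s_at was -0.0090 with centred arrays, -0.011 after quantile normalization and -0.049 to 0.057 without single arrays, SMARCA2 217707_x_at was 0.0019 after quantile normalization and -0.041 to 0.034 without single arrays, and SMARCA4 1569073_x_at and 213720_s_at ran from -0.097 to 0.037 and from -0.16 to 0.0057 without single arrays. Probe sets near log2 5, such as those of H1-4 and SPARC, are close to the background, which limits their differences.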

Other observations

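A549, a lung carcinoma line in the other labelled batch, carried SMARCA4 cDNAs with 1 array per group, so its values have no replicate check. With shLuc, H1-4 read 66.7 with ATPase dead SMARCA4, 69.3 with the bromodomain mutant, 91.9 with WT and 87.7 with GFP. EGR1 read 2031 with ATPase dead SMARCA4, 2173 with the bromodomain mutant, 2294 with WT and 2637 with GFP. FN1 read 6855 with ATPase dead SMARCA4, 7507 with the bromodomain mutant, 7548 with WT and 8382 with GFP. For EGR1 and FN1 all 3 SMARCA4 forms lay below the 1 GFP array, while for H1-4 the WT form lay above it. In H1299, FN1 was higher with ATPase dead SMARCA2, but from a far lower level (120 in GFP cells). SMARCA4 probe set 208794_s_at read 55.3 with ATPase dead SMARCA4, 56.1 with the bromodomain mutant, 54.3 with WT and 58.0 with GFP. A rise of SMARCA4 RNA from the cDNAs is therefore not seen in this probe set. The other SMARCA4 probe sets were not looked at in A549, so whether the cDNA RNA was raised is not settled. With S2sh7, FN1 read 315 with ATPase dead SMARCA4, 4919 with the bromodomain mutant, 4858 with WT and 577 with GFP.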
